A study of Mus musculus with 6 samples.

Results

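The SLC25 genes encode the mitochondrial carriers, the protein family that moves nucleotides, phosphate, carboxylates, amino acids, cofactors and metals across the inner mitochondrial membrane. All rows of the expression table with a symbol of the form Slc25a plus a number were taken, except Slc25a20, which gave 46 genes of 31273 in the table. Expression was measured as TPM, the share of all transcripts after allowing for gene length, so levels of different carriers can be compared. The libraries came from mouse left ventricle, as 3 libraries labelled with cardiomyocyte-specific RBM20 overexpression and 3 labelled control. RBM20 is a splicing regulator of heart muscle, and the study used a knock-in mouse in which tamoxifen turns on RBM20 in cardiomyocytes. The study asked what RBM20 without a mutation does in dilated cardiomyopathy. The sources used here do not give age, strain or tamoxifen dose, nor whether the control mice carried the Cre transgene or received tamoxifen. The sample titles carry cre for the overexpression libraries and cki for the control libraries, and the groups follow the genotype field. Effects of Cre or tamoxifen on the carriers could therefore not be tested apart from those of RBM20.

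A mitochondrial carrier usually exchanges a substrate in the matrix for another in the intermembrane space, and most members share a fold of repeated membrane helices. In the heart the adenine nucleotide carriers export the ATP made by oxidative phosphorylation in exchange for ADP, and the phosphate carrier brings in the phosphate that ATP synthase needs. The aspartate/glutamate and oxoglutarate carriers form the membrane part of the malate-aspartate shuttle, which passes the reducing equivalents of cytosolic NADH into the matrix.

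Rbm20 had 321, 913 and 907 TPM in the overexpression libraries, against 74.9, 90.9 and 79.5 TPM in the control libraries. It was 8.73-fold higher (limma log2 difference 2.96, adjusted p = 1.82e-04), in the direction of the genotype labels, with overexpression replicate 1 well below the other overexpression libraries. Reads assigned to Esr1, the estrogen receptor gene, gave 217.8, 53.0 and 199 TPM in the overexpression libraries, against 0.415, 0.234 and 0.3005 TPM in the control libraries. Whether these reads came from the mouse's own gene or from a transgene was not tested. The labels give no sex. The Y-linked gene Ddx3y was listed above 0 in overexpression replicate 1 alone, at 88.1 TPM. Xist, the transcript of the inactive X chromosome, had 0.0172, 62.6 and 57.2 TPM in the overexpression libraries, against 34.4, 40.2 and 37.6 TPM in the control libraries. Without overexpression replicate 1, 13 of 38 tested carriers were called higher and 10 lower in TPM. In the same setting 6862 of all 12404 tested genes were called higher and 1077 lower. Estimated depth was between 51100000 and 90300000 reads in the overexpression libraries and between 41800000 and 70800000 in the control libraries. Mitochondrially encoded transcripts took 38.7% ± 2.21 of TPM in overexpression libraries and 49.7% ± 1.99 in control libraries (SD, n = 3 each). TPM share a fixed total, and the median log2 difference over all 12404 tested genes was 0.55. Differences and calls were therefore also computed after rescaling by median of ratios, which brought that median to 0.01. Rescaling moved differences downward, so it is a second check of a rise and no separate check of a fall.

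Of the 46 carriers, 38 reached a mean of 1 TPM over the 6 libraries and were tested. In deposited TPM 14 of them (36.8%) were called higher with overexpression, against 59.0% of all tested genes. Another 11 (28.9%) were called lower, against 9.09% of all tested genes, so that 25 were called in either direction, against 68.1%. After rescaling 3 (7.89%) were called higher, against 22.2% of all tested genes, and 20 (52.6%) were called lower, against 24.0%. Slc25a1, Slc25a23 and Slc25a44 were higher under both scalings. Among the 11 lower under both were Slc25a3, Slc25a4, Slc25a11, Slc25a13, Slc25a16, Slc25a26, Slc25a34, Slc25a35, Slc25a42 and Slc25a46. A further 10 carriers called higher in TPM lost the call after rescaling (35.8% of all tested genes), and 8 were not called in TPM and lower after rescaling (13.9% of all). These 8 were Slc25a10, Slc25a12, Slc25a22, Slc25a27, Slc25a33, Slc25a38, Slc25a39 and Slc25a51. Slc25a5 was higher in TPM and lower after rescaling, as were 1.00% of all tested genes. Slc25a14, Slc25a29, Slc25a32, Slc25a36 and Slc25a53 were not called under either scaling (18.0% of all). Slc25a53 is the tested carrier with a control mean under 1 TPM, 1.22 ± 0.0408 TPM in overexpression and 0.831 ± 0.108 TPM in control libraries (SD, n = 3 each).

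The median log2 difference of the 38 carriers was 0.12 in TPM, against 0.55 for all tested genes, and -0.45 after rescaling, against 0.01. Single carriers ran from -2.78 to 1.33 in TPM, and 28 of the 38 lay below the median of all genes while 10 lay above it. A log2 difference of at least 1 with a call under both scalings was seen for 5 falls, in Slc25a4, Slc25a11, Slc25a13, Slc25a34 and Slc25a42, against 3.02% of all tested genes. It was seen for 0 rises by the limma test, against 5.99% of all tested genes. The 3 rises called under both scalings were between 0.49 and 0.73 after rescaling. Rescaling moved differences downward, so the rule is harder to meet for a rise than for a fall. In TPM alone, Slc25a1, Slc25a23, Slc25a25 and Slc25a44 had called rises of 1.07 to 1.33 (no share of all genes was computed). The groups did not overlap in TPM for 25 of 38 carriers, against 72.5% of all tested genes. Of these 13 were higher (62.1% of all tested genes) and 12 lower (10.4% of all). After rescaling the groups did not overlap for 27 of 38 carriers, against 57.0% of all tested genes.

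**Figure D1:**
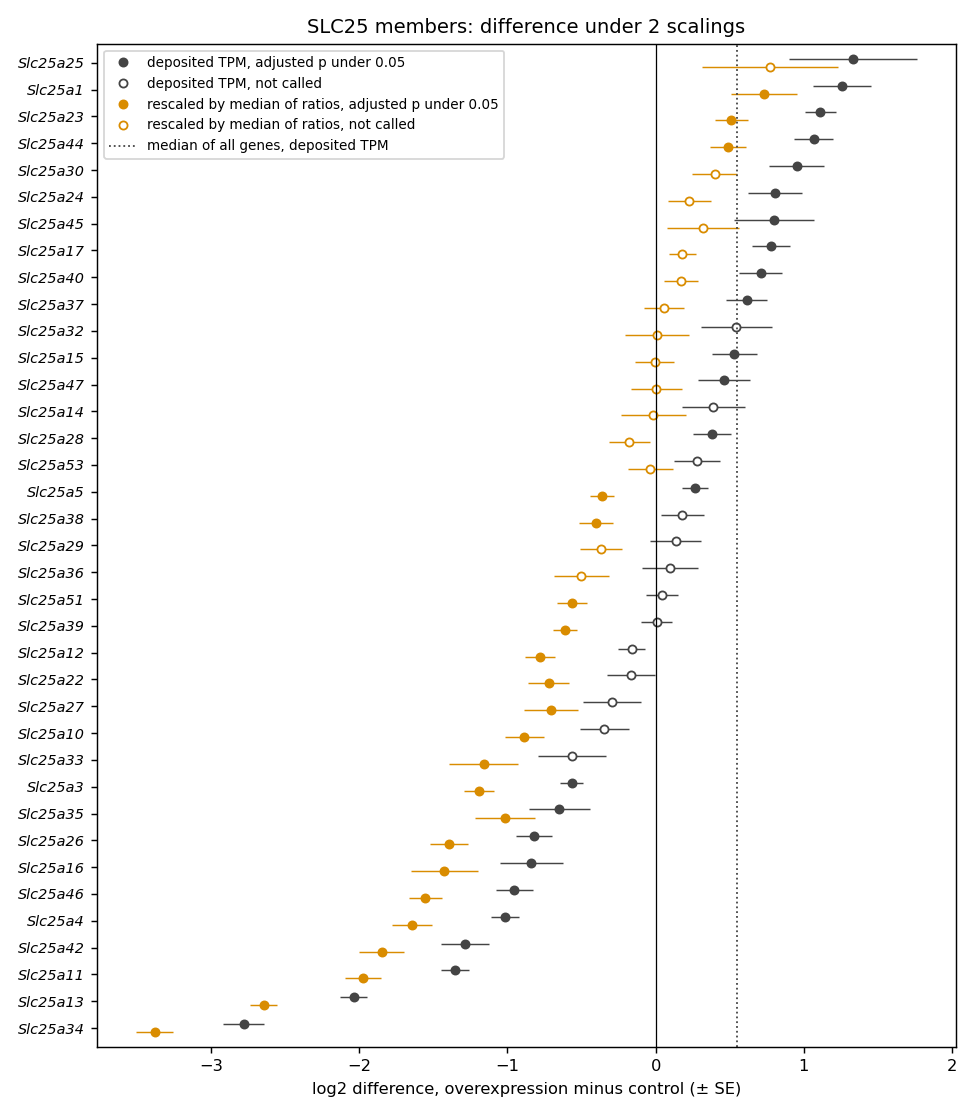
The log2(TPM + 1) difference of overexpression minus control libraries (x axis, ± SE) is drawn for 37 tested carriers (y axis), in deposited TPM and after rescaling, with filled points past an adjusted p of 0.05. Slc25a34 at -2.78 and Slc25a13 at -2.04 lie farthest left in TPM, and the dotted line marks the median of all genes at 0.55.

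The sequence before each gene's start was read for carriers that stood apart in either direction. It was also read for the ADP/ATP carriers Slc25a4 and Slc25a5, whose ratio did not overlap between the groups. RefSeq windows on GRCm38.p6, from 250 bases before to 50 after the start, were held for 35 of the 46 carriers. Capitals mark a CCAAT box (CCAAT, or ATTGG where it lies on the other strand) or an E-box (CACGTG), and all are written 5′ to 3′ along the gene. Slc25a4 and Slc25a5 are shown because they encode the muscle ADP/ATP carrier and its more widely expressed paralog, Slc25a13 and Slc25a34 because they had the largest falls, and Slc25a1 because it had the largest rise called under both scalings.
Slc25a4, chr8:46211013-46211312, minus strand: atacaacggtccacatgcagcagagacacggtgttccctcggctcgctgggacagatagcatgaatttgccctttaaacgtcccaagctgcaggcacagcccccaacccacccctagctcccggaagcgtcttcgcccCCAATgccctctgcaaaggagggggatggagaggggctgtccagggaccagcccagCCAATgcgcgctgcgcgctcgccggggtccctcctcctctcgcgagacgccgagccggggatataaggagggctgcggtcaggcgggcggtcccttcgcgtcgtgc
Slc25a5, chrX:36795347-36795646, plus strand: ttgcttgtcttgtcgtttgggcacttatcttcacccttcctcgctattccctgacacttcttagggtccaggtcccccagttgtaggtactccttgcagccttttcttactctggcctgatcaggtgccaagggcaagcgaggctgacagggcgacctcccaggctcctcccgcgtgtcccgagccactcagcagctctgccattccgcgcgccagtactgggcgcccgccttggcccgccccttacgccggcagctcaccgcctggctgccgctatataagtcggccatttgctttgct
Slc25a13, chr6:6217124-6217423, minus strand: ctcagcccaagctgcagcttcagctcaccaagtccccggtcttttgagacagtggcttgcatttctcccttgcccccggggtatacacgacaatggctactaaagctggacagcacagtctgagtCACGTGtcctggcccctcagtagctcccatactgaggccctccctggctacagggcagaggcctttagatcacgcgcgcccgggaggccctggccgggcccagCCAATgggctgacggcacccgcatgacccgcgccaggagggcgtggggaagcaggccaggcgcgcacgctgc
Slc25a34, chr4:141623785-141624084, minus strand: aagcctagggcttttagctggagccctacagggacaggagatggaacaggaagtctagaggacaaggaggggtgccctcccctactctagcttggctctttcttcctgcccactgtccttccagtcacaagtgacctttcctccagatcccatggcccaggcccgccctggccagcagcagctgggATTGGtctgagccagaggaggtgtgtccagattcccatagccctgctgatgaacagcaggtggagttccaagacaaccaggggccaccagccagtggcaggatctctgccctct
Slc25a1, chr16:17928170-17928469, minus strand: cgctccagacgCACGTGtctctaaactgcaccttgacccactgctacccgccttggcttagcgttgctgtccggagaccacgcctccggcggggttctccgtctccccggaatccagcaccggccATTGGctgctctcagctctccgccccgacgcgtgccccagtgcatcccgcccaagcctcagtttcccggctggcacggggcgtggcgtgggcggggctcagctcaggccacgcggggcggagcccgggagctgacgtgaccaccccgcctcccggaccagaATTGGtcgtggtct

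A CCAAT box, a common element of promoters close to the start, was in the window of 19 of 35 carriers (54.3%), against 41.1% of all 27025 genes with a window and 42.8% of those tested. It was present in 5 of the 7 carriers lower under both scalings that have a window, and in both carriers higher under both that have one. Those 5 are Slc25a4, Slc25a11, Slc25a13, Slc25a34 and Slc25a42. The box was also in Slc25a29, Slc25a36 and Slc25a53, which were not called under either scaling, and absent from Slc25a14, likewise not called. The Slc25a4 window holds it 112 and 56 bases before the start and the Slc25a34 window 64 bases before it, while the Slc25a5 window holds none. The E-box was in 7 of 35 carriers (20%), against 8.09% of all genes with a window and 11.8% of those tested. The NRF1 element (GCGCANGCG), named for a regulator of nuclear genes for mitochondria, was in Slc25a3 and Slc25a31, 5.71% of carriers with a window against 7.03% of all genes and 15.1% of those tested. The element of the estrogen-related receptors (TNAAGGTCA, 1.43% of all genes and 0.869% of those tested) and the ATF4 composite element (TGATGNAA, 4.51% of all genes and 2.74% of those tested) were in 0 of the 35 windows. All 5 motifs were searched on both strands, overlap with another motif was allowed, and a match is a description of letters only.

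The adenine nucleotide and phosphate carriers held most of the carrier RNA. Of 8 tested members 5 were called higher and 3 lower in TPM, and 1 higher and 4 lower after rescaling. Slc25a4 encodes ANT1, the ADP/ATP carrier of heart and skeletal muscle, and was the most abundant carrier in every library. It had 2029, 1840 and 2116 TPM in the overexpression libraries, against 4306, 4104 and 3708 TPM in the control libraries. All overexpression libraries lay far below all control libraries, and the mean was 1995 ± 141 TPM against 4039 ± 304 TPM (SD, n = 3 each). Slc25a4 was 2.02-fold lower (log2 difference -1.02, SE 0.0959, limma adjusted p = 6.47e-05), and the difference after rescaling was -1.64.

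Slc25a5 encodes ANT2, the ADP/ATP carrier of many proliferating and non-muscle cells. It had 417, 453 and 415 TPM in the overexpression libraries, against 358, 383 and 329 TPM in the control libraries. The groups did not overlap in TPM, and the direction depended on the scaling. In TPM the log2 difference was 0.26 (limma adjusted p = 0.0256) and -0.36 after rescaling (adjusted p = 0.00697), with -0.019 when mitochondrially encoded genes were removed and 0.078 after quantile normalization. The call in TPM was lost without control replicate 1, control replicate 3 or overexpression replicate 2 (adjusted p 0.0567 to 0.0976). Slc25a5 is X-linked, and its difference without overexpression replicate 1, the library with Ddx3y, was 0.28 (adjusted p = 0.0349).

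Slc25a3 encodes the phosphate carrier, second to Slc25a4 in mean level over the 6 libraries. It had 441, 452 and 482 TPM in the overexpression libraries, against 701, 683 and 653 TPM in the control libraries, with no overlap. The log2 difference was -0.57 (SE 0.0785, limma adjusted p = 3.61e-04), and -1.19 after rescaling. Slc25a31, the ADP/ATP carrier of the germ line, stayed below the filter at 0.168 ± 0.0681 TPM in overexpression and 0.215 ± 0.174 TPM in control libraries.

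The calcium-regulated ATP-Mg/phosphate carriers, which change the adenine nucleotide content of the matrix, were at lower levels. Slc25a23 had 38.3, 33.7 and 33.9 TPM in the overexpression libraries, against 16.4, 15.2 and 15.8 TPM in the control libraries. Every overexpression library was above every control library, and the 2.24-fold rise was called under both scalings (log2 difference 1.112, limma adjusted p = 6.62e-05, and 0.51, adjusted p = 0.0064, after rescaling). Slc25a24 had 17.5, 20.1 and 12.0 TPM in the overexpression libraries, against 8.42, 9.50 and 8.63 TPM in the control libraries. Its groups did not overlap in TPM, but the log2 difference of 0.81 became 0.23 after rescaling (limma adjusted p = 0.00442 and 0.236). Slc25a25 had 9.57, 18.7 and 24.7 TPM in the overexpression libraries, against 12.3, 4.29 and 3.76 TPM in the control libraries. Here the groups overlapped, since control replicate 1 exceeded overexpression replicate 1. Slc25a25 had the largest positive log2 difference of the 38 tested carriers in TPM (1.33, limma adjusted p = 0.0224), and among them also the largest coefficient of variation in both groups, 43.0% in overexpression and 70.3% in control libraries. Its call was lost after rescaling (adjusted p = 0.206), without mitochondrially encoded genes, and without control replicate 2 or 3 or overexpression replicate 2 or 3 (adjusted p 0.0632 to 0.0819).

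Slc25a42 carries coenzyme A into the matrix in exchange for adenine nucleotides. It had 7.60, 5.69 and 5.88 TPM in the overexpression libraries, against 14.4, 19.8 and 16.9 TPM in the control libraries, and the groups were well apart. It was 2.67-fold lower (log2 difference -1.29, SE 0.162, limma adjusted p = 2.29e-04, and -1.85 after rescaling). Slc25a17, a carrier of the peroxisome membrane for coenzyme A and related cofactors, had 29.9, 32.2 and 24.6 TPM in the overexpression libraries, against 15.8, 17.5 and 15.7 TPM in the control libraries. Its log2 difference was 0.78 in TPM (limma adjusted p = 8.5e-04) and 0.18 after rescaling (adjusted p = 0.150).

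**Figure D2:**
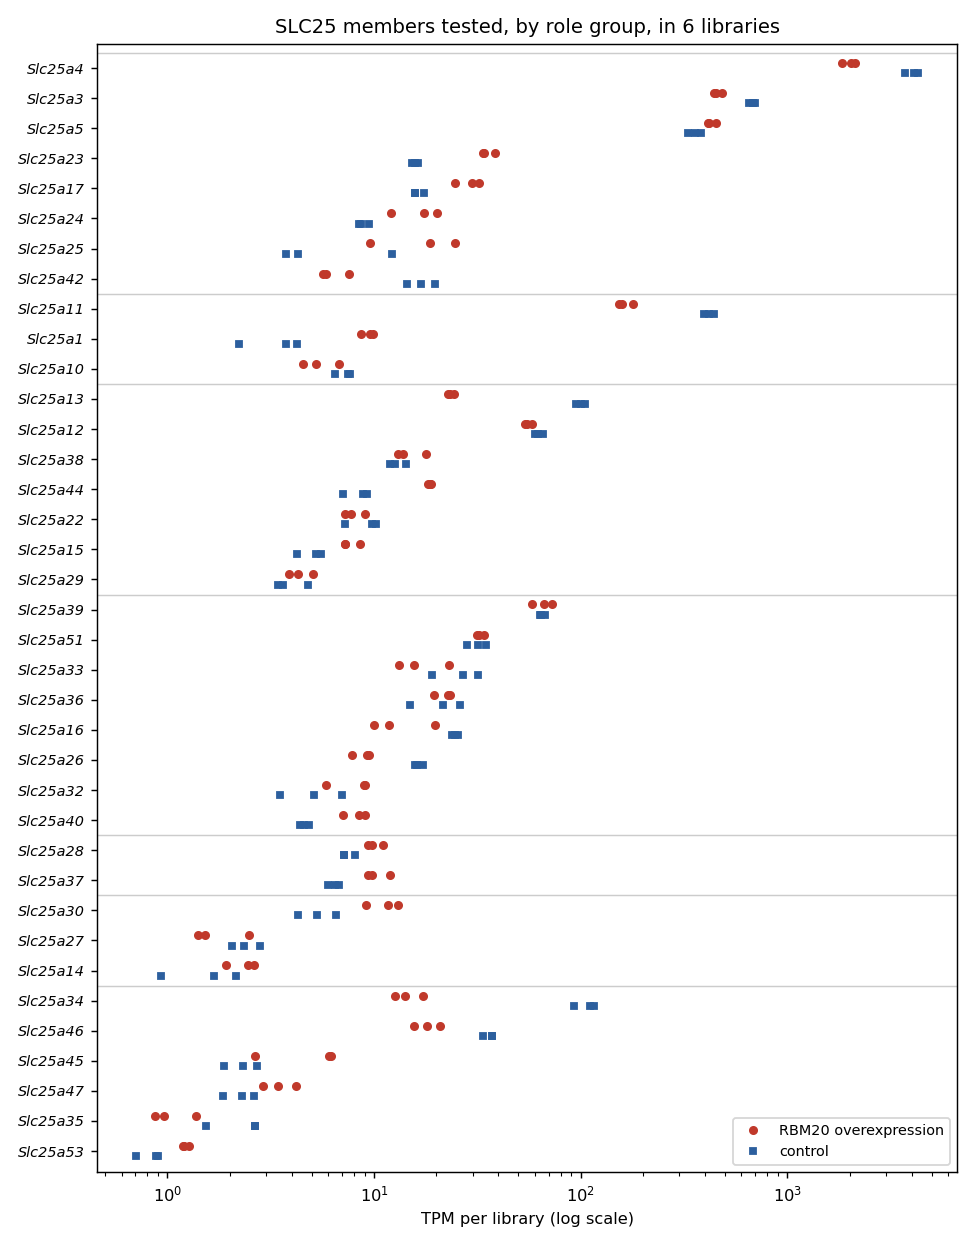
TPM of 37 tested carriers (y axis) in each of 6 libraries (x axis, log scale) is drawn with 1 point a library, and grey lines part the groups by substrate: adenine nucleotides and phosphate, carboxylates, amino acids, cofactors, metals, uncoupling-protein-like, and unsettled. Slc25a4 has 1840 to 2116 TPM in overexpression libraries and 3708 to 4306 TPM in control libraries, and Slc25a34 and Slc25a13 are set apart further.

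Among the di- and tricarboxylate carriers, 3 were tested, and 1 was higher and 1 lower in TPM. Slc25a11 encodes the oxoglutarate carrier, which exchanges malate for 2-oxoglutarate in the malate-aspartate shuttle. It had 158, 154 and 180 TPM in the overexpression libraries, against 444, 419 and 396 TPM in the control libraries. The highest overexpression library was below every control library, and Slc25a11 was 2.56-fold lower (log2 difference -1.35, SE 0.0924, limma adjusted p = 1.79e-05, and -1.98 after rescaling). Its exons overlap on the opposite strand with Rnf167, which averaged 22.8 TPM in overexpression and 21.3 TPM in control libraries. Slc25a1 encodes the citrate carrier, which exports citrate for cytosolic acetyl-CoA. It had 9.86, 8.64 and 9.55 TPM in the overexpression libraries, against 3.76, 2.22 and 4.26 TPM in the control libraries. It was higher in all 3 overexpression libraries and 2.74-fold higher in the mean. The log2 difference was 1.26 in TPM (limma adjusted p = 6.93e-04) and 0.73 after rescaling (adjusted p = 0.0286).

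Slc25a10, the dicarboxylate carrier, had 5.23, 6.78 and 4.51 TPM in the overexpression libraries, against 7.46, 7.66 and 6.51 TPM in the control libraries. The groups overlapped in TPM and the difference of -0.35 did not pass (limma adjusted p = 0.0922), while it was -0.89 after rescaling (adjusted p = 0.0011). Slc25a21, the oxodicarboxylate carrier, was listed at 0 in 4 of the 6 libraries and was not tested.

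Of the 7 tested amino acid carriers 2 were higher and 1 lower in TPM, and 1 was higher and 4 were lower after rescaling. Slc25a12 and Slc25a13 encode aralar and citrin, the calcium-regulated aspartate/glutamate carriers. Slc25a13 had 23.4, 24.5 and 22.7 TPM in the overexpression libraries, against 105, 94.4 and 99.9 TPM in the control libraries. The spread within each group was small beside the gap, and Slc25a13 was 4.24-fold lower (log2 difference -2.04, SE 0.0920, limma adjusted p = 4.81e-06, and -2.65 after rescaling). Slc25a12 had 58.1, 53.9 and 55.1 TPM in the overexpression libraries, against 65.5, 59.9 and 61.9 TPM in the control libraries. Its groups did not overlap, by a narrow margin, and the difference of -0.16 did not pass in TPM (limma adjusted p = 0.134), while it was -0.78 after rescaling (adjusted p = 5.7e-04). The more abundant of the pair was Slc25a12 in each overexpression library and Slc25a13 in each control library.

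Slc25a44, a carrier of branched-chain amino acids, had 18.9, 18.6 and 18.3 TPM in the overexpression libraries, against 7.11, 9.22 and 8.89 TPM in the control libraries. The overexpression libraries were almost level, and all lay above the control libraries. It was 2.21-fold higher, with a log2 difference of 1.07 in TPM (limma adjusted p = 2.01e-04) and 0.49 after rescaling (adjusted p = 0.0123). Slc25a22, a glutamate carrier, had 7.72, 8.99 and 7.22 TPM in the overexpression libraries, against 7.27, 10.3 and 9.79 TPM in the control libraries, which overlapped. Its log2 difference was -0.16 in TPM (limma adjusted p = 0.391) and, once rescaled, -0.72 (adjusted p = 0.00403). Slc25a15, an ornithine carrier, averaged 7.66 ± 0.765 TPM in overexpression and 5.002 ± 0.683 TPM in control libraries (SD, n = 3 each), a difference of 0.53 in TPM and -0.01 after rescaling. Slc25a38, which brings in glycine for heme synthesis, averaged 14.9 ± 2.49 and 13.0 ± 1.24 TPM in these groups, with differences of 0.18 in TPM (limma adjusted p = 0.293) and -0.40 after rescaling (adjusted p = 0.0219). Slc25a29, a carrier of basic amino acids, averaged 4.42 ± 0.607 TPM in overexpression and 3.95 ± 0.748 TPM in control libraries, with differences of 0.13 in TPM and -0.37 after rescaling, neither called. Slc25a18, the other glutamate carrier, and Slc25a2 were below the filter. Slc25a18 had 0.349, 0.504 and 0.796 TPM in the overexpression libraries, against 0.520, 0.258 and 0.151 TPM in the control libraries. Its exons overlap on the opposite strand with Atp6v1e1, which averaged 72.3 TPM in overexpression and 58.9 TPM in control libraries.

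The cofactor, vitamin, pyrimidine and glutathione carriers had 9 tested members, of which 1 was higher and 3 lower in TPM, and 6 lower after rescaling. Slc25a16, a carrier linked to coenzyme A, had 19.8, 10.04 and 11.8 TPM in the overexpression libraries, against 24.8, 23.8 and 25.4 TPM in the control libraries. Overexpression replicate 1 was the nearest to the control libraries, without overlap. The log2 difference was -0.84 (limma adjusted p = 0.00802), -1.43 after rescaling, and -1.107 in TPM without that library. Slc25a26, which imports the methyl donor S-adenosylmethionine, had 7.82, 9.23 and 9.48 TPM in the overexpression libraries, against 16.1, 15.8 and 17.2 TPM in the control libraries. It was 1.85-fold lower with no overlap (log2 difference -0.82, limma adjusted p = 5.64e-04, and -1.40 after rescaling). Its exons overlap on the opposite strand with Lrig1, which averaged 21.05 TPM in overexpression and 11.1 TPM in control libraries.

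Slc25a39 and Slc25a40 are linked to glutathione import. Slc25a39 had 66.3, 72.3 and 58.2 TPM in the overexpression libraries, against 67.3, 64.4 and 63.5 TPM in the control libraries, with the control range inside the overexpression range. Slc25a40 had 8.45, 9.08 and 7.04 TPM in the overexpression libraries, against 4.57, 4.83 and 4.38 TPM in the control libraries, with no overlap. The log2 difference of Slc25a40 was 0.71 in TPM (limma adjusted p = 0.00252) and 0.17 after rescaling (adjusted p = 0.256), while that of Slc25a39 was 0.01 and -0.61 (adjusted p = 0.956 and 6.55e-04). Slc25a33 and Slc25a36, both pyrimidine nucleotide carriers, overlapped between groups in TPM. Slc25a33 had 13.3, 23.03 and 15.6 TPM in the overexpression libraries, against 27, 19.1 and 31.8 TPM in the control libraries. Slc25a36 had 19.4, 22.9 and 23.3 TPM in the overexpression libraries, against 14.9, 25.97 and 21.6 TPM in the control libraries. The log2 difference in TPM was -0.56 for Slc25a33 (limma adjusted p = 0.0562) and 0.10 for Slc25a36 (adjusted p = 0.661). After rescaling it was -1.16 for Slc25a33 (limma adjusted p = 0.00485) and -0.50 for Slc25a36 (adjusted p = 0.0553). Slc25a51, the NAD carrier, averaged 32.6 ± 1.36 TPM in overexpression and 31.7 ± 3.28 TPM in control libraries, with differences of 0.04 in TPM (limma adjusted p = 0.736) and -0.56 after rescaling (adjusted p = 0.00266). Slc25a32, a folate carrier, averaged 7.95 ± 1.84 and 5.20 ± 1.74 TPM in these groups (limma adjusted p = 0.0725 in TPM and 0.981 after rescaling).

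The mitoferrins, which import iron for heme and iron-sulfur clusters, were both called higher in TPM and neither after rescaling. Slc25a37 had 12.0, 9.32 and 9.79 TPM in the overexpression libraries, against 5.98, 6.74 and 6.46 TPM in the control libraries. Slc25a28 had 9.38, 9.74 and 11.04 TPM in the overexpression libraries, against 7.17, 7.19 and 8.06 TPM in the control libraries. Neither pair of groups overlapped in TPM, and Slc25a37 differed by 0.61 (log2) in TPM and by 0.06 once rescaled. For Slc25a28 it was 0.38 and -0.18, and its call in TPM (limma adjusted p = 0.0284) was lost without control replicate 1 or 2 or overexpression replicate 2 or 3 (adjusted p 0.0507 to 0.0859).

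Of the 3 uncoupling-protein-like carriers Slc25a30 was called higher in TPM. It had 11.6, 13.1 and 9.14 TPM in the overexpression libraries, against 4.26, 6.54 and 5.28 TPM in the control libraries, all overexpression libraries being above. The log2 difference was 0.95 in TPM (limma adjusted p = 0.00201) and 0.40 after rescaling (adjusted p = 0.0639). Slc25a14 averaged 2.34 ± 0.360 TPM in overexpression and 1.59 ± 0.609 TPM in control libraries, and Slc25a27 1.81 ± 0.590 and 2.40 ± 0.375 TPM. Neither passed in TPM, and after rescaling the difference was -0.015 for Slc25a14 (limma adjusted p = 0.963) and -0.71 for Slc25a27 (adjusted p = 0.0143).

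Carriers of unsettled substrate or another role had 6 tested members, 2 higher and 3 lower in TPM, and 3 lower after rescaling. Slc25a34 had 12.7, 17.3 and 14.2 TPM in the overexpression libraries, against 93.0, 111 and 116 TPM in the control libraries. The groups were far apart, and the 7.25-fold fall was the largest of the 38 tested carriers (log2 difference -2.78, SE 0.139, limma adjusted p = 6.65e-06, and -3.38 after rescaling). Its close relative Slc25a35 averaged 1.07 ± 0.269 TPM in overexpression and 2.28 ± 0.644 TPM in control libraries (SD, n = 3 each). The log2 difference of Slc25a35 was -0.65 (limma adjusted p = 0.0201) and -1.02 after rescaling (adjusted p = 0.00439), and the call in TPM was lost without control replicate 1 or 2 or overexpression replicate 1 or 2 (adjusted p 0.0550 to 0.0750). Slc25a46, an outer membrane member linked to mitochondrial dynamics, had 20.8, 18.1 and 15.7 TPM in the overexpression libraries, against 37.1, 37.3 and 33.5 TPM in the control libraries. It was 1.98-fold lower without overlap (log2 difference -0.95, limma adjusted p = 2.88e-04, and -1.55 after rescaling).

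Slc25a45 averaged 4.98 ± 2.01 TPM in overexpression and 2.30 ± 0.419 TPM in control libraries, and overexpression replicate 3 at 2.66 TPM lay within the control range. Slc25a47 averaged 3.50 ± 0.635 TPM in overexpression and 2.26 ± 0.385 TPM in control libraries. The log2 differences in TPM were 0.80 for Slc25a45 and 0.46 for Slc25a47 (limma adjusted p = 0.0273 and 0.0430), and neither passed after rescaling. The call of Slc25a45 was lost without control replicate 1 or 2 or overexpression replicate 1 or 2 (adjusted p 0.0549 to 0.106). The call of Slc25a47 was lost without any 1 library other than overexpression replicate 1 (adjusted p 0.0504 to 0.149). The 8 carriers under the filter were Slc25a2, Slc25a18, Slc25a21, Slc25a31, Slc25a41, Slc25a43, Slc25a48 and Slc25a54. The highest group mean among them was that of Slc25a18, 0.550 ± 0.227 TPM in overexpression libraries, against 0.310 ± 0.190 TPM in control libraries. Slc25a54 was listed at 0 in all 6 libraries.

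Ratios of related carriers within a library do not depend on a factor applied to the whole library, such as that of median-of-ratios rescaling, and 10 pairs were compared in deposited TPM. The ratio of Slc25a5 to Slc25a4 was 0.206, 0.246 and 0.196 in the overexpression libraries, against 0.0832, 0.0933 and 0.0888 in the control libraries. It was 2.43-fold higher in the geometric mean (log2 difference 1.28, SE 0.111). The ratio of Slc25a13 to Slc25a12 was 0.403, 0.455 and 0.412 in the overexpression libraries, against 1.60, 1.58 and 1.61 in the control libraries, 3.78-fold lower (log2 difference -1.92, SE 0.0547). The ratio of Slc25a40 to Slc25a39 averaged 0.125 ± 0.00341 in overexpression and 0.0706 ± 0.00382 in control libraries (SD, n = 3 each). The ratio of Slc25a10 to Slc25a11 averaged 0.0341 ± 0.00957 in overexpression and 0.0172 ± 0.000982 in control libraries. The ratio of Slc25a42 to Slc25a16 averaged 0.483 ± 0.0923 in overexpression and 0.694 ± 0.128 in control libraries. These 5 ratios did not overlap between groups, 3 being higher and 2 lower, and each had an exact two-sided permutation p = 0.1, the smallest that 3 against 3 allows, and p = 0.2 after adjustment over the 10 pairs. The other 5 pairs, Slc25a37 to Slc25a28, Slc25a24 to Slc25a23, Slc25a25 to Slc25a23, Slc25a36 to Slc25a33 and Slc25a22 to Slc25a18, overlapped, and their exact permutation p ran from 0.2 to 0.8. No share over other gene pairs is given beside these counts, and the 10 pairs were chosen with earlier results of these data known.

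**Figure D3:**
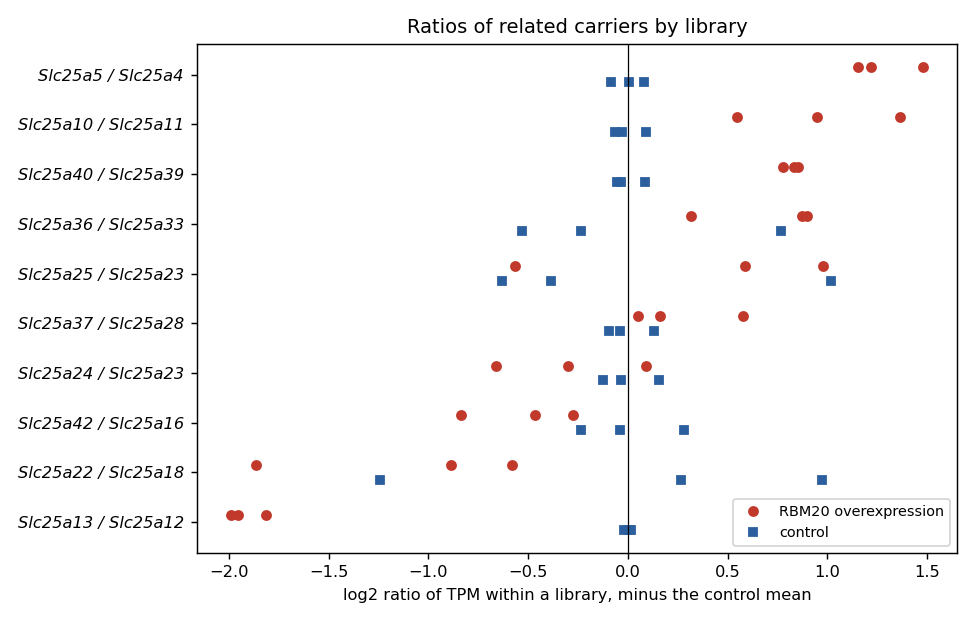
The log2 ratio of 2 carriers within each library, minus the mean of the control libraries (x axis), is drawn for 10 pairs (y axis), with 1 point a library. Slc25a5 to Slc25a4 lies to the right of all control libraries, 1.28 in the mean, and Slc25a13 to Slc25a12 to the left, -1.92 in the mean.

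Summed over all 46 members the family had 3565, 3441 and 3682 TPM in the overexpression libraries, against 6452, 6256 and 5756 TPM in the control libraries. The ratio of the means was 0.579, and it was 0.741 without Slc25a4. It was 0.376 after rescaling and 0.476 with mitochondrially encoded genes removed from the total. Slc25a4 made up 55.9% ± 2.17 of the sum in overexpression and 65.6% ± 1.16 in control libraries, and Slc25a5 made up 12.0% ± 0.988 and 5.80% ± 0.291 (SD, n = 3 each). Slc25a3, Slc25a4, Slc25a5 and Slc25a11 together held 85.4% ± 1.27 of the sum in overexpression and 89.2% ± 0.838 in control libraries. Carboxylate carriers held 5.01% ± 0.222 of the sum in overexpression and 6.996% ± 0.120 in control libraries, and cofactor carriers held 5.18% ± 0.537 and 3.399% ± 0.317.

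**Figure D4:**
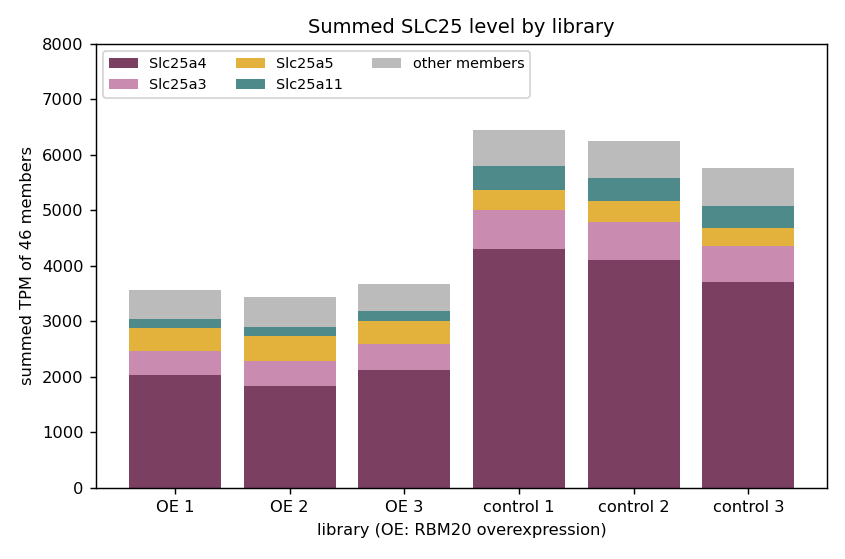
Summed TPM of the 46 carriers (y axis) is drawn for each of the 6 libraries (x axis, OE for overexpression), stacked by the 4 most abundant carriers and all others. The overexpression bars reach 3441 to 3682 TPM and the control bars 5756 to 6452 TPM, and Slc25a4 is the lowest block of each bar.

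The 4 carriers with a mean of at least 100 TPM had a median log2 difference of -0.79 in TPM, against 0.36 for all 870 genes at that level, of which 28.5% were called lower. The 10 carriers between 20 and 100 TPM had a median of -0.08, against 0.57 for all genes of that level. The 17 carriers between 5 and 20 TPM had a median of 0.53, against 0.60 for all genes, and the 7 below 5 TPM had 0.28, against 0.48. At 100 TPM or more 3 of 4 carriers were called lower and 1 higher in TPM, against 28.5% and 53.2% of all genes. Between 20 and 100 TPM 3 of 10 were lower and 2 higher, against 10.6% and 66.0%. Between 5 and 20 TPM 4 of 17 were lower and 9 higher, against 6.52% and 63.8%. Below 5 TPM 1 of 7 was lower and 2 higher, against 6.37% and 47.7%. Replicate spread was moderate, with a median coefficient of variation over tested carriers of 13.2% in overexpression and 9.95% in control libraries.

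**Figure D5:**
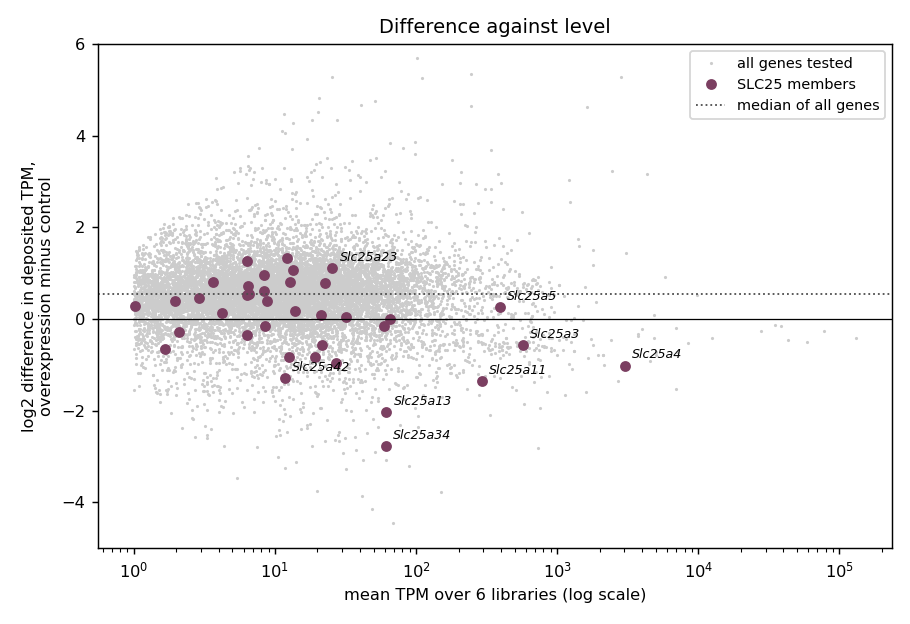
The log2 difference in TPM of overexpression minus control (y axis) is drawn against the mean TPM over 6 libraries (x axis, log scale) for all 12404 tested genes in grey and 37 carriers as large points. The carriers above 100 TPM are Slc25a5 at 0.26, Slc25a3 at -0.57, Slc25a4 at -1.02 and Slc25a11 at -1.35, and the dotted line marks 0.55.

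Partner genes of the carriers were counted in the same fit, in which 59.0% of all tested genes were higher and 9.09% lower in TPM, and 22.2% higher and 24.0% lower after rescaling. All 4 enzymes of the malate-aspartate shuttle were lower under both scalings, with a median log2 difference of -0.69 in TPM. Got1, the cytosolic aspartate aminotransferase, averaged 427 ± 11.4 TPM in overexpression and 843 ± 75.2 TPM in control libraries, and Mdh1, the cytosolic malate dehydrogenase, 819 ± 102 and 1728 ± 94.3 TPM. Of 15 heme and iron-sulfur enzymes 1 was higher and 6 lower in TPM, and 12 were lower after rescaling. Alas1, the first enzyme of heme synthesis, averaged 46.5 ± 4.16 TPM in overexpression and 103 ± 10.2 TPM in control libraries. Of 7 coenzyme A enzymes 3 were higher and 1 lower in TPM, and 1 was higher and 3 lower after rescaling. Pank1, a pantothenate kinase, averaged 5.47 ± 0.451 TPM in overexpression and 24.4 ± 2.56 TPM in control libraries, while Coasy, the last enzyme of the pathway, averaged 15.4 ± 1.78 and 6.93 ± 0.675 TPM.

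All 6 genes of glutathione synthesis and use were higher in TPM, and 5 were higher and 1 lower after rescaling. Gclm, a subunit of the enzyme that starts glutathione synthesis, averaged 33.5 ± 5.74 TPM in overexpression and 8.53 ± 0.643 TPM in control libraries, and Gsr, glutathione reductase, 34.3 ± 6.52 and 10.5 ± 1.65 TPM. Of 8 proline, glutamate and ornithine enzymes 4 were higher and 2 lower in TPM, and 2 were higher and 4 lower after rescaling. Pycr1, a proline synthesis enzyme, averaged 3.07 ± 0.459 TPM in overexpression and 0.331 ± 0.128 TPM in control libraries. Of 9 mitochondrial folate and glycine genes 4 were higher and 1 lower in TPM, and 2 were higher and 2 lower after rescaling, with Mthfd2 at 7.79 ± 2.99 TPM in overexpression and 1.18 ± 0.203 TPM in control libraries.

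Of 18 other inner membrane transporters 10 were higher and 3 lower in TPM, against 59.0% and 9.09% of all tested genes. After rescaling 4 were higher and 4 lower, against 22.2% and 24.0%. Mpc2, a subunit of the mitochondrial pyruvate carrier, averaged 68.0 ± 6.58 TPM in overexpression and 123 ± 10.9 TPM in control libraries, and Micu3, a regulator of the calcium uniporter, 17.6 ± 3.47 and 5.80 ± 1.24 TPM. Of the outer membrane channels Vdac1, Vdac2 and Vdac3, Vdac1 was lower in TPM and all 3 were lower after rescaling. Members of the same protein family under other symbols had 2 of 4 tested genes higher in TPM, and 2 lower after rescaling. Among them Ucp2 averaged 52.6 ± 7.92 TPM in overexpression and 30.7 ± 4.64 TPM in control libraries, and Mtch1 89.2 ± 6.08 and 71.0 ± 1.07 TPM.

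The ventricle holds several cell types, and in bulk RNA fewer cells of a type and less RNA per cell cannot be told apart. Of 10 cardiomyocyte markers 2 were higher and 5 lower in TPM, 8 were lower after rescaling, and their sum was 41321 to 47289 TPM in overexpression and 53417 to 59478 TPM in control libraries. All 10 macrophage markers were higher in TPM and 9 after rescaling, with a sum of 766 to 1338 TPM in overexpression and 353 to 468 TPM in control libraries. All 10 cell cycle genes were higher in TPM and 9 after rescaling, with sums of 126 to 200 and 45.2 to 52.7 TPM. Of 10 fibroblast markers 7 were higher and 1 lower in TPM, and 5 higher and 3 lower after rescaling, with sums of 2319 to 2863 TPM in overexpression and 1351 to 1803 TPM in control libraries. Of 10 endothelial markers 1 was higher in TPM and 4 were lower after rescaling, and their sums overlapped, at 781 to 852 TPM in overexpression and 652 to 804 TPM in control libraries. Of 9 tested pericyte and smooth muscle markers 4 were higher and 1 lower in TPM, and 2 higher and 4 lower after rescaling, with overlapping sums of 638 to 697 TPM in overexpression and 603 to 736 TPM in control libraries. Erythroid markers overlapped as well, at 742 to 1809 TPM in overexpression and 777 to 1175 TPM in control libraries. Lymphocyte and neutrophil markers summed to 13.0 to 33.5 TPM in overexpression and 6.18 to 7.61 TPM in control libraries, with 2 of 12 tested and 2 of the 12 at 0 in all control libraries. The 2 tested were called higher in TPM, and neither was called after rescaling. Adipocyte markers summed to 37.9 to 44.5 TPM in overexpression and 27.2 to 32.3 TPM in control libraries, with 1 of 7 tested. Most of that sum was the tested gene, Cidea, at 39.2 ± 5.03 TPM in overexpression and 29.1 ± 2.16 TPM in control libraries. Cidea was called higher in TPM and was not called after rescaling. The part of these cell types in the carrier differences was not tested.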

How the data were processed

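Polyadenylated RNA of left ventricle went into TruSeq libraries, read from both ends with the strand kept, per the labels' protocols. The deposited table holds TPM per gene symbol, computed by the authors and named as TPM in the file name, for 31273 symbols. Per the submitters' processing notes, the tools were STAR-Fusion 1.11.0, GATK 4.2.6.1, edgeR 3.40.2 and featureCounts 2.0.3, with mm8 as build and no role for each. Aligner, annotation and the strand setting of the counting: not given in the sources used here. Values of overlapping genes and close paralogs are therefore uncertain.

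Groups of 3 libraries came from the genotype labels. The labels give no batch and do not say that libraries come from separate animals, so p-values measure the spread between these libraries. The 12404 genes that averaged 1 TPM or more were compared on log2(TPM + 1) with limma 3.58.1 in R 4.3.3 (trended, two-sided), with Benjamini-Hochberg adjustment over all of them and a threshold of 0.05. Differences on this scale understate those of low genes, and folds are ratios of mean TPM, or of geometric means for ratios of carriers. For the second scaling, a library's factor was the median, over genes, of its TPM divided by the gene's geometric mean. Ratios of carriers were compared by exact permutation over all 20 assignments of the libraries. Depth was estimated from the steps between low TPM values and GENCODE M21 exon lengths, and the lowest estimate for a tested carrier in a library was 44 reads. Promoter windows are RefSeq sequences on GRCm38.p6, matched by symbol, and were not used in any test. Python 3.11.15 with pandas 2.3.3, numpy 2.4.6 and matplotlib 3.10.9 made the tables and plots. The code was tested on simulated data in which few genes were set to change. That test did not cover a difference in most genes, as seen here.

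Carriers with values in every library are the 8 most abundant, the 8 largest called rises and falls without overlap, and the members of the 10 pairs, and of each partner list up to 2 genes with the smallest p. The values of 1 tested carrier are not reported here, and the counts include it. Esr1, Ddx3y and Xist were named after their values were seen. The members, lists and pairs were chosen with earlier results of these data known. Alternatives were other pseudocounts, filters, limma settings and scalings, removal of mitochondrially encoded genes, and each library left out.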

Additional observations from a re-analysis of the deposited data

How the results depend on the processing

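No paired analysis was possible because the sample numbers in the labels are not shared between the groups. With 3 libraries a group, exact tests cannot go below 0.1, and low carriers and calls near the threshold are the least certain. The scaling moved the counts most. Carriers called higher numbered 14 in deposited TPM, 3 after median-of-ratios rescaling, 3 after quantile normalization and 7 without mitochondrially encoded genes, and 9 to 13 with 1 library left out. Carriers called lower numbered 11, 20 after rescaling, 20 after quantile normalization, 15 without mitochondrially encoded genes, and 10 to 12 with 1 library left out. Over all 12404 tested genes, 7316 were higher and 1127 lower in TPM, against 2756 and 2974 after rescaling. With 1 library left out, 6285 to 7234 were higher and 956 to 1077 lower. Without mitochondrially encoded genes, 13420 genes were tested, of which 5382 were higher and 1796 lower. No count over all genes is given for quantile normalization. The ratio of the family sum was 0.579, 0.376 after rescaling and 0.476 without mitochondrially encoded genes.

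The log2 difference turned negative after rescaling for Slc25a5 (-0.36), Slc25a28 (-0.18), Slc25a36 (-0.50), Slc25a39 (-0.61), Slc25a14 (-0.015), Slc25a15 (-0.0069), Slc25a29 (-0.37), Slc25a38 (-0.40), Slc25a51 (-0.56) and Slc25a53 (-0.036). After quantile normalization it was negative for Slc25a28 (-0.20), Slc25a36 (-0.45), Slc25a39 (-0.47), Slc25a14 (-0.10), Slc25a15 (-0.038), Slc25a29 (-0.41), Slc25a32 (-0.025), Slc25a38 (-0.38), Slc25a47 (-0.062), Slc25a51 (-0.48) and Slc25a53 (-0.20). Without mitochondrially encoded genes it was negative for Slc25a5 (-0.019), Slc25a36 (-0.18), Slc25a39 (-0.28), Slc25a29 (-0.10), Slc25a38 (-0.087) and Slc25a51 (-0.24). With 1 library left out, Slc25a36 ran from -0.11 to 0.27, Slc25a39 from -0.065 to 0.089 and Slc25a51 from -0.033 to 0.11. The cause was not tested. Pseudocounts of 0.1 and 0.5 and the robust prior changed the call of 0 of 38 carriers and a filter of 5 TPM that of 0 of 31. Without a filter Slc25a25, Slc25a45 and Slc25a47 lost their calls, and without the trend Slc25a5 lost its call and Slc25a53 gained one.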
